A study of Arabidopsis thaliana with 9 samples.

Results

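Of the 427 Arabidopsis thaliana mature miRNA entries counted in each library, 113 carried a family number of 5000 or above, miR5026 and miR5996 aside. In 11 of these all 9 libraries had 0 counts, namely miR5016, miR5017-3p, miR5017-5p, miR5018, miR5019, miR5021, miR5022, miR5630a, miR5630b, miR5650 and miR8184. The other 102 entries, called late entries here because of their high numbers, are the subject of this account. They belong to 73 families numbered 5012 to 8183 and hold 85 distinct mature sequences. One of them, miR8175, is described apart, which leaves 101.

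Leaves of plants aged 3 weeks were sampled from 3 genotypes, with 3 small RNA libraries each. The genotypes were se-2, a mutant of SERRATE (SE), chr2, a mutant of CHR2 (also known as BRM), and wild type (WT). The labels give neither the WT accession nor the nature of the chr2 allele, and they do not say whether libraries came from separate plants, so p-values measure the spread between libraries, which may be technical. The files hold counts of miRNA entries and no mRNA, so neither the genotypes nor the tissue could be checked against the mutated genes or leaf markers. Counts over all entries summed to 130482 to 195415 in se-2, 637283 to 908635 in chr2 and 1280294 to 1588242 in WT. These sums mix sequencing depth with the amount of miRNA in a library, and the total depth of the libraries was not analysed here.

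Plant miRNAs are cut from hairpin-forming primary transcripts by the nuclease DCL1, which works with the zinc finger protein SE and the double-stranded RNA binding protein HYL1. CHR2 is an ATPase of SWI/SNF chromatin remodelling complexes. miRNA families are numbered in the order in which they were registered. The families conserved among land plants have low numbers, while many high-numbered Arabidopsis entries were registered later from deep sequencing. The seed, bases 2 to 8 of the mature RNA, is printed in capitals in the sequences below.

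miR8175 was the most abundant late entry in every library, and its sequence is shown because it has a match outside miRNA genes. In RefSeq's TAIR10.1 annotation it lies on chromosome 2, 3740938 to 3740957 on the plus strand, in intergenic sequence. All 20 of its bases equalled the last 20 bases of a tRNA-Asp with the CCA end that tRNAs receive after transcription, 17 bases from the gene and 3 from the added CCA. This held for 22 of the 28 tRNA-Asp genes, and none of the other 426 entries was found within a tRNA with CCA added. In the tRNA line the capitals mark the miR8175 sequence instead of a seed, in the end of AT1G03515 (chromosome 1, 877648 to 877719, plus strand).
miR8175: gAUCCCCGgcaacggcgcca
tRNA-Asp end with CCA: acccggguucGAUCCCCGGCAACGGCGCCA

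The next set holds the late entries with few counts in se-2, at a se-2 over WT ratio of mean raw counts below 0.1, among those with a mean of at least 10 raw counts over the 9 libraries. Both miR5663 arms and the shared miR5998 sequence are included.
miR5652: uUGAAUGUgaaugaaucgggc
miR5012: uUUUACUGcuacuuguguucc
miR8183: uUUAGUUGacggaauuguggc
miR5998a and miR5998b: aCAGUUUGuguuuuguuuugu
miR5654-3p: uGGAAGAUgcuuugggauuuauu
miR5663-3p: uGAGAAUGcaaauccuuagcu
miR5663-5p: aGCUAAGGauuugcauucuca

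The last set holds abundant late entries and those with the highest se-2 over WT ratios at a mean of at least 10 raw counts, whose counts differed little between se-2 and WT or less than those of most miRNAs. miR5637 is added because it was called lower in chr2.
miR5642a and miR5642b: uCUCGCGCuuguacggcuuu
miR5653: uGGGUUGAguugaguugaguuggc
miR8167a to miR8167f: aGAUGUGGagaucguggggaug
miR8180: uGCGGUGCgggagaagugc
miR5659: cGAUGAAGgucuuuggaacggua
miR5640: uGAGAGAAggaauuagauuca
miR5637: aAUGCGCAacucuauauuucc
No seed recurred among these sequences. Over all late entries with different mature sequences, 1 seed was shared, GGAAGAA, between miR5020a and miR5641.

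Late entries without miR8175 had a like part of their WT counts in se-2 and in chr2, whereas the other miRNAs had far fewer counts in se-2 than in chr2. Their raw counts summed to 1557, 2515 and 2558 in the se-2 libraries, to 2358, 2681 and 1992 in the chr2 libraries, and to 4358, 4022 and 3796 in the WT libraries. Every se-2 and chr2 library lay below every WT library, and se-2 and chr2 overlapped. The means were 2210 ± 566 in se-2, 2344 ± 345 in chr2 and 4059 ± 283 in WT (SD, n = 3 each), which is 0.545 of the WT mean in se-2 and 0.577 in chr2 (p = 0.1 in both comparisons by a two-sided exact permutation test, in which 3 against 3 libraries allow no smaller p). All entries outside the late group summed to 161109 ± 32390 counts in se-2, 792935 ± 141500 in chr2 and 1410714 ± 157200 in WT, or 0.114 of WT in se-2 and 0.562 in chr2. In whole leaves, fewer cells that make an miRNA and less of it per cell cannot be told apart.

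Set against the counts of the same library, the late entries took a larger share in se-2 and a like share in chr2. They made up 1.19, 1.49 and 1.31% of all counts in the se-2 libraries, 0.278, 0.295 and 0.313% in chr2 and 0.316, 0.314 and 0.239% in WT. The se-2 share was 4.59 times the WT share, with no overlap (exact two-sided permutation p = 0.1, the smallest possible). In chr2 the share was 1.02 times that of WT, the libraries overlapped (exact permutation p = 1), and the ratio turned to 0.938 without WT replicate 3 and 0.99 without chr2 replicate 3. Per 1000 counts of other entries there were 13.6 ± 1.5 late counts in se-2, 2.97 ± 0.173 in chr2 and 2.91 ± 0.442 in WT (SD, n = 3 each). By family number, the se-2 over WT ratio of summed counts was 0.155 for entries from miR1886 up to 5000, 0.21 from 500 up to miR1886 and 0.113 below 500, and the chr2 over WT ratios were 0.495, 0.394 and 0.564. miR5026 and miR5996, outside the rule, had ratios to WT of 0.551 and 0.208 in se-2 and of 0.154 and 0.208 in chr2.

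**Figure D1:**
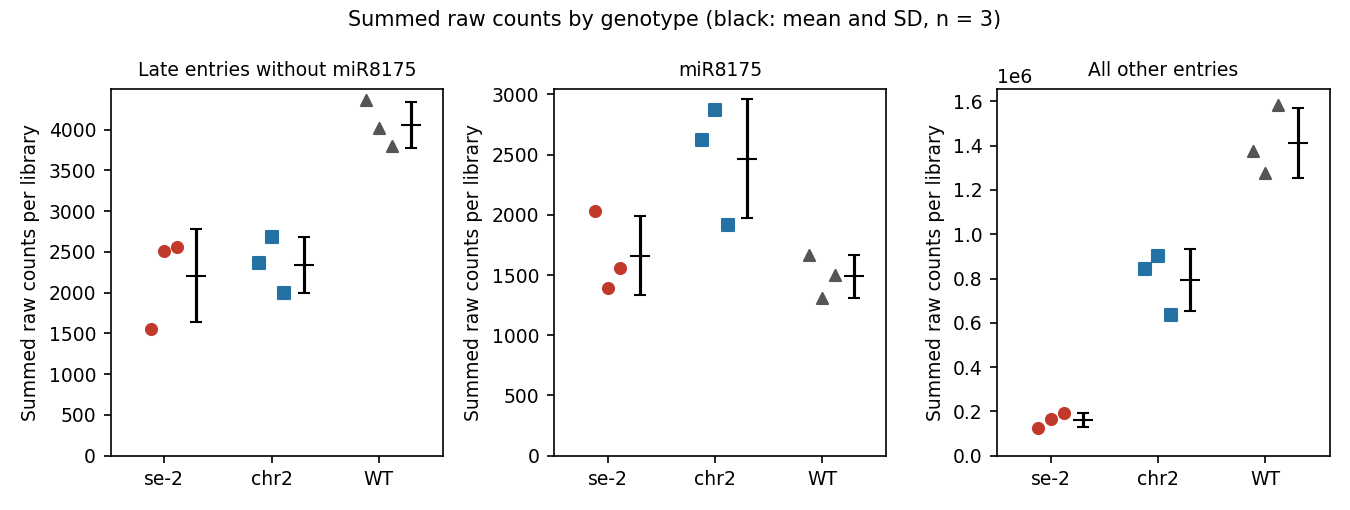
Summed raw counts per library (y axes, from 0) of late entries without miR8175, of miR8175 and of all other entries, for se-2, chr2 and WT (x axes). Points are libraries and black bars are the mean and SD of 3 libraries. The late sums of se-2 and chr2 lie at 1557 to 2681 counts, below the 3796 to 4358 of WT, while the other entries are far lower in se-2 than in chr2.

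miR8175 had as many raw counts in se-2 as in WT, and more in chr2. It had 2032, 1396 and 1557 raw counts in se-2, 2618, 2869 and 1914 in chr2, and 1665, 1307 and 1500 in WT. The se-2 and WT libraries overlapped, while all chr2 libraries lay above all WT libraries. Its mean was 1.11 times that of WT in se-2 (exact two-sided permutation p = 0.6) and 1.65 times in chr2 (exact permutation p = 0.1, the smallest possible). As a share of all counts it reached 1.56, 0.826 and 0.797% in the se-2 libraries, 0.309, 0.316 and 0.300% in chr2 and 0.121, 0.102 and 0.0944% in WT. The first se-2 library had both the highest miR8175 count and the lowest sum of the other late entries among the 3 se-2 libraries. miR8175 alone made up 56.6, 35.7 and 37.8% of the late counts in se-2, 52.6, 51.7 and 49.0% in chr2 and 27.6, 24.5 and 28.3% in WT. After TMM scaling, which assumes that most entries are unchanged, it averaged 9798 ± 3859 CPM (counts scaled to a fixed library total) in se-2, 3345 ± 181 in chr2 and 1050 ± 84.9 in WT (SD, n = 3 each). In edgeR's quasi-likelihood test its log2 change was 3.22 in se-2 (standard error 0.24, adjusted p = 2.23e-10) and 1.67 in chr2 (standard error 0.22, adjusted p = 6.8e-06). With no scaling of the counts its log2 change was 0.16 in se-2 (adjusted p = 0.59) and 0.73 in chr2 (adjusted p = 0.0212).

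Entry by entry, the late group split in se-2 into a majority with moderately fewer counts than WT and a minority with very few counts. Among the 43 late entries without miR8175 that had a mean of at least 10 raw counts over the 9 libraries, the median se-2 over WT ratio of mean counts was 0.531 (quartiles 0.363 and 0.664, range 0.0174 to 1.54). The 198 entries outside the late group at this level had a median of 0.103, but the bands of family numbers within them differed: the median was 0.329 for the 11 entries from miR1886 up to 5000, of which 6 were at 0.25 or more, 0.166 for the 42 from 500 up to miR1886 and 0.0989 for the 143 below 500. The band next in number thus lay closer to the late entries than its ratio of summed counts or the pooled median shows. Ratios below 0.25 were found in 10 of the 43 (23.3%), against 68.6% of all 242 entries at this level, and 8 of the 10 were below 0.1. Entries that share a mature sequence count separately in these medians and shares. By distinct late sequence, a ratio below 0.25 was found for 5 of 13 with a single exact match in the genome. It was found for 4 of 8 with 2 to 4 matches and 0 of 8 with 5 or more. Of the 58 late entries with a lower mean, 18 had a ratio below 0.25, with WT means of at most 17.0 counts, and 8 had a ratio above 1. Many of these ratios rest on very few counts, since 24 late entries had at most 9 counts in all 9 libraries together. The share over all entries with a lower mean is not given, so these 18 do not add to the minority. All 3 se-2 libraries lay below all 3 WT libraries in 36 of the 43 (83.7%), close to the 87.2% of all entries. Late entries thus lay below WT about as often as all entries, but less far below it. In chr2 the median ratio was 0.592 (quartiles 0.492 and 0.622), against 0.527 outside the late group, 1 of the 43 was below 0.25, against 8.68% of all entries, and 35 lay below WT without overlap (81.4%), against 66.9% of all entries.

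**Figure D2:**
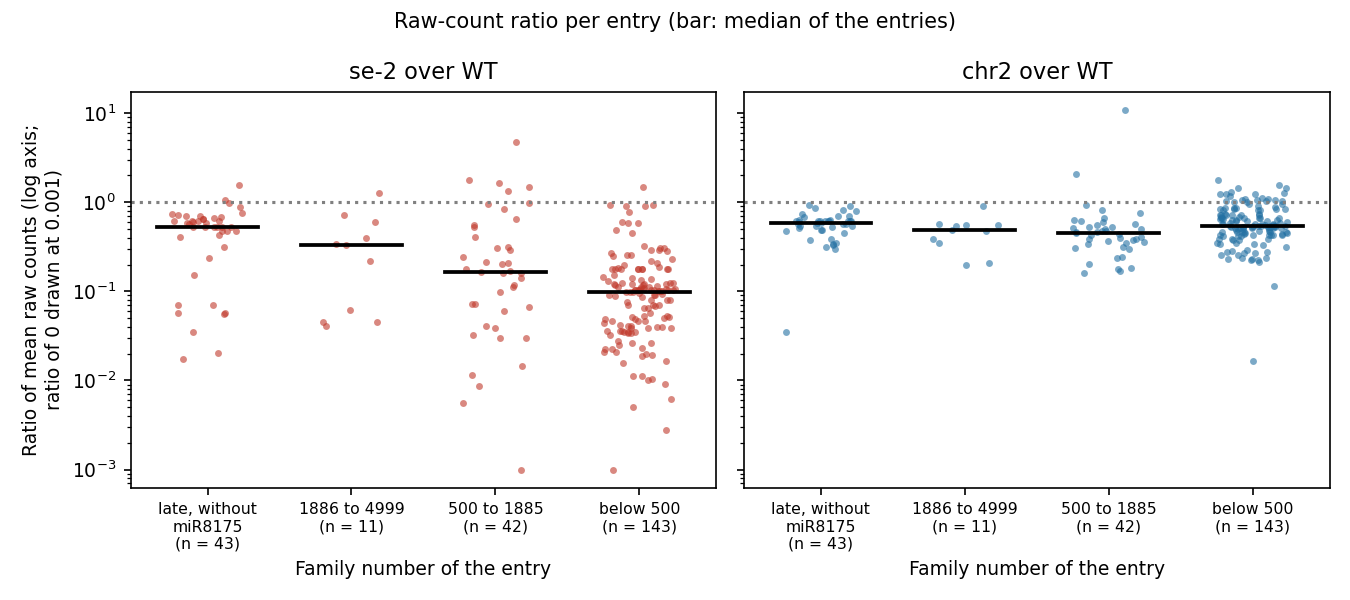
Ratio of mean raw counts in se-2 (left) and chr2 (right) over WT for each entry with a mean of at least 10 counts (y axis, log scale), grouped by family number (x axis). Points are entries, black bars are medians and the dotted line marks equal counts. In se-2 the late entries gather around 0.531 with a tail of 10 below 0.25, while entries numbered below 500 have a median of 0.0989, and in chr2 the medians lie close together.

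The most abundant late entries after miR8175 belonged to the majority. miR5642a (chromosome 3, 14197116 to 14197135, plus strand, intergenic) had 247, 295 and 301 raw counts in se-2, 226, 232 and 195 in chr2 and 419, 344 and 370 in WT. Neither mutant overlapped with WT. Its ratio to WT was 0.744 in se-2 and 0.576 in chr2. miR5653 (chromosome 1, 19026915 to 19026938, minus strand, intergenic) had 116, 177 and 227 counts in se-2, 175, 236 and 161 in chr2 and 303, 244 and 263 in WT, with ratios of 0.642 in se-2 and 0.706 in chr2. Both mutants lay below WT. miR8167a, which stands for 6 entries of 1 mature sequence, had 69, 159 and 147 counts in se-2, 148, 163 and 130 in chr2 and 260, 243 and 210 in WT. Its ratio was 0.526 in se-2 and 0.619 in chr2, and neither mutant reached the WT range. Without miR8175, the 10 entries with the most counts held 65.5% of late counts in se-2, 62.5% in chr2 and 57.2% in WT. Of these 10, 6 were the miR8167 entries with nearly equal counts, so 1 sequence enters the late sums 6 times. A few sequences thus held most of the sums.

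Some late entries had as many raw counts in se-2 as in WT, or more. miR5659 (chromosome 5, 16409804 to 16409826, minus strand, intergenic) had 19, 34 and 52 counts in se-2, 15, 29 and 17 in chr2 and 25, 23 and 20 in WT, a ratio of 1.54 in se-2 and 0.897 in chr2. Its libraries overlapped between genotypes. miR8180 (chromosome 2, 2063980 to 2063998, plus strand, intergenic) had 76, 140 and 121 counts in se-2, 117, 87 and 87 in chr2 and 124, 107 and 85 in WT. The 3 genotypes overlapped, with a ratio of 1.07 in se-2 and 0.921 in chr2. miR5640, in an intron of CALS1, a callose synthase gene, on the same strand (chromosome 1, 1653539 to 1653559, minus), had 14, 16 and 28 counts in se-2, 11, 10 and 9 in chr2 and 19, 20 and 20 in WT. Its se-2 libraries overlapped with WT at a ratio of 0.983, and its chr2 libraries lay below WT at 0.508. miR5642b, with the sequence of miR5642a but at chromosome 2, 3145 to 3164, in an untranslated exon of AT2G01008, had 134, 134 and 128 counts in se-2, 66, 92 and 83 in chr2 and 170, 134 and 142 in WT. Its ratio was 0.888 in se-2, where the lowest WT count equalled the highest se-2 counts, and 0.54 in chr2, where all libraries lay below WT.

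The entries with few counts in se-2 were the exceptions among late entries, with ratios in the range of most low-numbered families. miR5652 had 1, 1 and 0 raw counts in se-2, 13, 21 and 11 in chr2 and 47, 34 and 34 in WT. It lies at chromosome 1, 23413402 to 23413422, minus strand, opposite the coding sequence of AT1G63130 (RPF6), a gene named for RNA processing. Its ratio was 0.0174 in se-2 and 0.391 in chr2, without overlap. miR5012 (chromosome 2, 8432747 to 8432767, plus strand, intergenic) had 1, 1 and 2 counts in se-2, 45, 40 and 28 in chr2 and 57, 77 and 62 in WT, a ratio of 0.0204 in se-2 and 0.577 in chr2. miR5654-3p (chromosome 1, 11786348 to 11786370, plus strand), in an untranslated exon of AT1G32583 on the same strand, had 3, 5 and 3 counts in se-2, 39, 51 and 30 in chr2 and 68, 68 and 56 in WT. Its ratio was 0.0573 in se-2 and 0.625 in chr2, and for each of these 3 entries both mutants lay below WT. The other arm, miR5654-5p, had 1, 2 and 0 counts in se-2, 6, 11 and 5 in chr2 and 12, 11 and 13 in WT, so both arms of the hairpin had few counts in se-2.

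miR5663-3p had 1, 2 and 5 counts in se-2, 46, 40 and 13 in chr2 and 47, 32 and 35 in WT, and chr2 overlapped with WT. miR5663-5p had 8, 4 and 4 counts in se-2, 18, 40 and 21 in chr2 and 75, 80 and 71 in WT, with no overlap. The sequences of these arms, both on the minus strand of chromosome 1 (18686859 to 18686879 and 18686942 to 18686962), are exact reverse complements of each other. miR5998a and miR5998b share their sequence and lie in the lncRNA genes AT5G01725 and AT5G01705. miR5998a had 1, 3 and 3 counts in se-2, 12, 40 and 22 in chr2 and 50, 36 and 38 in WT, a ratio of 0.0565 in se-2 without overlap and of 0.597 in chr2 with overlap. miR5651 (ratio 0.154) and miR5995b (ratio 0.234), with fewer than 10 counts in each se-2 library, completed the 10 entries below 0.25 at a mean of at least 10 counts.

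miR8183 stood apart, since it had few counts in both mutants. It had 0, 2 and 2 raw counts in se-2, 1, 0 and 3 in chr2 and 34, 47 and 34 in WT, which gave the same ratio of 0.0348 in both. Each mutant library had at most 3 counts and each WT library at least 34. It lies at chromosome 3, 11747799 to 11747819, minus strand, in an exon of the transcribed pseudogene AT3G30110 on the same strand. Of the 43 late entries at a mean of at least 10 counts, it was the 1 below 0.25 in chr2.

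**Figure D3:**
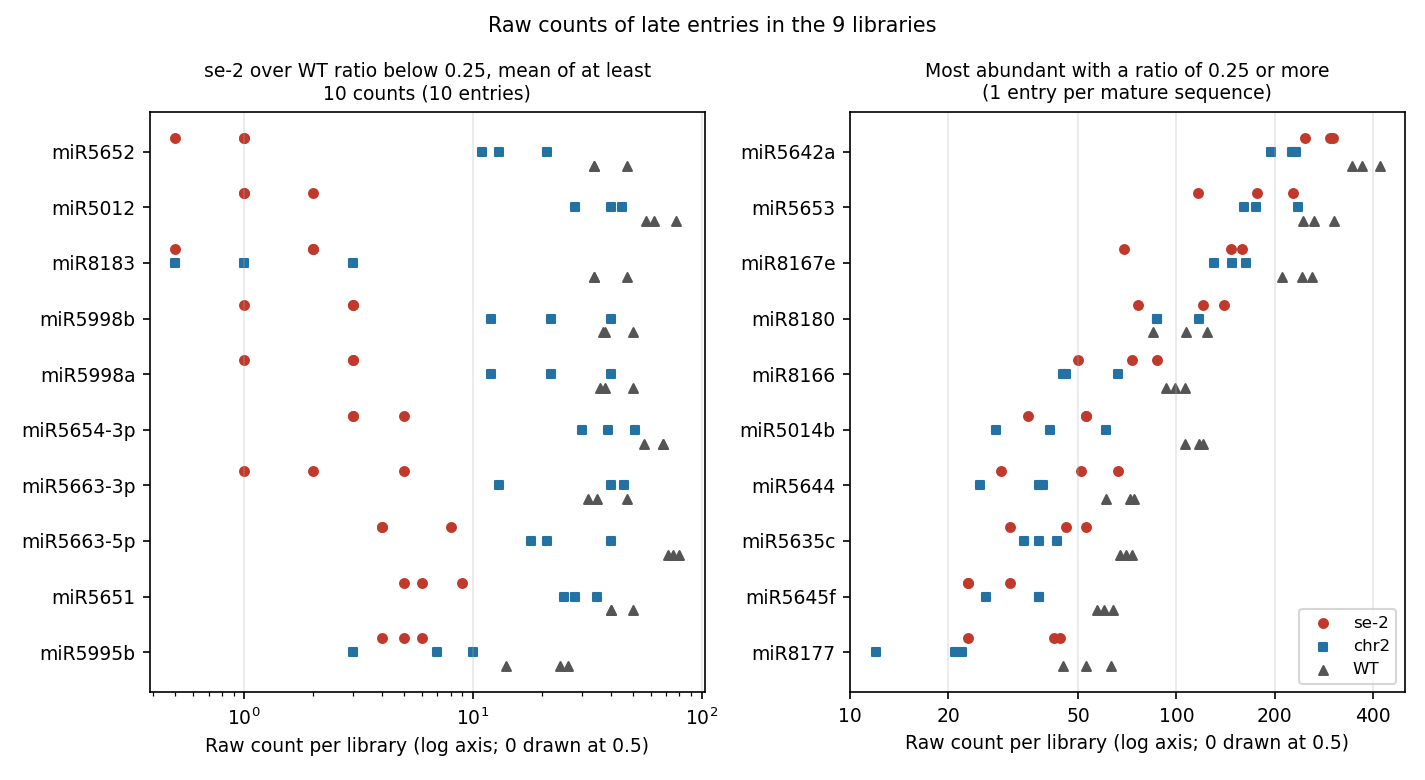
Raw counts per library (x axes, log scale, 0 drawn at 0.5) of the 10 late entries with a mean of at least 10 counts and a se-2 over WT ratio below 0.25 (left) and of the 10 most abundant other late entries without miR8175, 1 per mature sequence (right). Each point is a library of se-2, chr2 or WT. On the left, se-2 lies at 0 to 9 counts and miR8183 is as low in chr2 as in se-2, whereas on the right no se-2 library is below 23 counts.

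Tests relative to the average miRNA of each library were made with edgeR and TMM scaling on the 283 entries with enough counts, 53 of them late; the other 49 late entries had too few counts to be tested. In se-2, 43 of the 53 late entries (81.1%) were called higher by edgeR, against 43.5% of all tested entries, with adjusted p below 0.05. Another 4 (7.55%) were called lower, against 27.9% of all tested entries. Entries that share a mature sequence count separately in all these calls, so that the 6 miR8167 entries enter as 6 though they hold 1 sequence. The calls were not counted by distinct sequence. Part of the higher calls came through the filter: 11 of the 53 passed it only with the se-2 libraries counted, and 10 of these were called higher, so that their calls are no support. Of the 42 that had enough counts in chr2 and WT alone, 33 were called higher and 4 lower. All 9 tested late entries with a mean below 10 raw counts were called higher. In a fit on the 242 entries with a mean of at least 10 raw counts, 34 of 44 late entries were called higher, against 38.4% of all, and 4 lower, against 29.3% of all. The median log2 change of the 53 late entries was 2.21 and that of all tested entries 0.17. With no scaling of the counts the direction turned. edgeR called 0 late entries higher, against 1.06% of all tested entries (also 0 late entries at an unadjusted p below 0.05, with no other tool run unscaled). It called 27 of the 53 late entries lower, against 78.1% of all tested entries. The unscaled median log2 change was -0.77 for late entries and -2.83 for all. A shift common to all entries, which TMM removes, cannot be told apart from a difference in depth, so the contrast between late and other entries is the part that both fits share.

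Among the late entries called higher relative to the average miRNA in se-2, the largest log2 change belonged to miR5659, with 3.58 (standard error 0.28, adjusted p = 4.41e-10), and 0.62 without scaling. miR5640 had a log2 change of 2.95 (standard error 0.29, adjusted p = 1.58e-08), which was -0.02 unscaled, and miR8180 one of 3.07 (standard error 0.25, adjusted p = 8.21e-10), 0.09 unscaled. miR5642a had 2.58 with TMM and -0.43 unscaled, miR5642b 2.86 and -0.17, miR5653 2.34 and -0.64, and miR8167a 2.04 and -0.93, so that these changed sign with the scaling. Low entries that the rule also named were miR5027 (30.7 ± 5.76 CPM in se-2 and 2.59 ± 1.06 in WT), miR5629 (62.3 ± 22.6 CPM in se-2 and 6.65 ± 2.92 in WT) in an untranslated exon of NDL2, and miR5645c (36.3 ± 14.2 CPM in se-2 and 4.42 ± 1.25 in WT; SD, n = 3). Without scaling their log2 changes were 0.53, 0.23 and 0.07, and none of the 3 was called. Each passed the filter, and the average of 10 CPM that the rule asks for, only through se-2, so their TMM calls rest on that filter. Their raw counts overlapped between se-2 and WT, from 3 to 16 in se-2 and from 2 to 12 in WT.

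Lower in se-2 in both fits were miR5652, with a log2 change of -2.79 (standard error 0.70, adjusted p = 0.00124) and -5.60 unscaled, and miR5012, with -2.60 (standard error 0.51, adjusted p = 0.000106) and -5.49 unscaled. Over the 20 alternatives, adjusted p stayed at or below 0.015 for miR5652 and 0.00213 for miR5012. miR8183 had -1.84 (standard error 0.69, adjusted p = 0.0219) and -4.72 unscaled, but its TMM call was lost without se-2 replicate 1 (adjusted p = 0.0986), without se-2 replicate 3 (adjusted p = 0.0582) and with TMM factors from the other entries (adjusted p = 0.084), within a range of 2.12e-08 to 0.0986 over 20 alternatives. miR5654-3p had -1.13 (standard error 0.38, adjusted p = 0.011) and -4.08 unscaled, and its TMM call was lost without se-2 replicate 3 (adjusted p = 0.0867) and with factors from the other entries (adjusted p = 0.0969), within a range of 5.52e-10 to 0.0969. Without WT replicate 3 there were 7 late entries called lower in se-2, and without se-2 replicate 3 there were 2.

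In chr2 few late entries were called different from the average miRNA. Of the 53 tested, edgeR called 2 late entries higher (3.77%, against 14.5% of all tested entries) and 2 lower (3.77%, against 12.4% of all), and 49 were not called. Many late entries have few counts, so an entry that was not called is not shown to be unchanged. The median log2 change was 0.14 for late entries and 0.02 for all tested entries. Without scaling, 1 of the 53 late entries, miR8175, was called higher (against 1.77% of all) and 27 lower (against 57.6% of all), with a median of -0.80 for late entries and -0.92 for all. The entries called higher with TMM were miR8175 and miR8180, whose log2 change of 0.85 (standard error 0.24, adjusted p = 0.0119) was -0.12 unscaled. The miR8180 call was lost without WT replicate 3 (0.68, adjusted p = 0.0529) and with total counts (0.71, adjusted p = 0.0521), and its adjusted p ran from 0.00225 to 0.757 over 20 alternatives. The entries called lower were miR8183, with -3.79 (standard error 0.57, adjusted p = 2.91e-05), and miR5637. miR8183 was also lower unscaled (-4.72), and its adjusted p was at most 0.000366 over 20 alternatives.

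miR5637, in an intron of AT2G28620 (chromosome 2, 12270341 to 12270361, minus strand), had 23, 22 and 27 raw counts in se-2, 10, 12 and 11 in chr2 and 32, 34 and 44 in WT. All 3 genotypes were separate, with chr2 the lowest, and the ratio to WT was 0.655 in se-2 and 0.3 in chr2. Its log2 change in chr2 was -0.78 (standard error 0.28, adjusted p = 0.0461) with TMM and -1.73 unscaled. The TMM call rested on a narrow margin: adjusted p ran from 0.000233 to 0.164 over 20 alternatives, and it was above 0.05 without WT replicate 2 (0.0853) or 3 (0.159), without se-2 replicate 2 (0.0649) or 3 (0.0574), without chr2 replicate 1 (0.133) or 2 (0.164), with the replicate number as a block (0.0821), with DESeq2 size factors (0.0556), with TMM factors from the other entries (0.0617), by DESeq2's test (0.102), by limma-voom (0.0766), with no filter (0.0749) and with a mean of at least 10 counts (0.0776).

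Detection of late entries was lower in both mutants than in WT, at unlike depths. At least 1 count in any library was found for 89 late entries in se-2, 89 in chr2 and 100 in WT, and counts in all 3 libraries for 65 in se-2, 60 in chr2 and 73 in WT. Of the 102 entries, 83 were found in all 3 genotypes and 51 in all 9 libraries. After thinning each library to 130482 counts, the total of the smallest one, the computed mean number of late entries with counts in all 3 libraries was 60.9 in se-2, 39.8 in chr2 and 43.0 in WT. At an equal number of miRNA counts, then, se-2 libraries held the most late entries. This goes with the larger late share of se-2 counts given above and is not separate support. Detection of the entries outside the late group is not given beside it. In WT alone 8 entries were found (miR5023, miR5025, miR5631, miR5633, miR5634, miR5638a, miR5648-3p and miR8182), each with at most 13 counts in all, and in chr2 alone miR5999, with 2 counts.

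Complete absence from a genotype concerned low entries. miR5997 (chromosome 3, 10706868 to 10706888, plus strand, intergenic) had 0 counts in all se-2 libraries, 3, 3 and 3 in chr2 and 9, 5 and 12 in WT, so its raw counts were at least 8.67-fold lower in se-2 than in WT against 3 counts over the group. Relative to all counts of the group, WT had 6.12 CPM, near the 6.06 CPM that 3 counts would give in se-2, so a loss relative to the other miRNAs was not detectable at this depth. miR5634, opposite an untranslated exon of AT4G30750, had 0 counts in se-2 and chr2 and 9, 3 and 1 in WT. miR5649a and miR5649b, which share a sequence, had 1, 1 and 1 and 1, 3 and 1 counts in se-2, 0 in chr2, and 1, 0 and 4 each in WT.

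Properties of the entries that the rule did not use went along with the se-2 ratio. These are descriptions of the 101 late entries without miR8175, with no test of the difference between classes. Hairpins with both arms listed (16 entries, 8 hairpins) summed to 31, 45 and 38 counts in se-2, 145, 180 and 101 in chr2 and 297, 257 and 264 in WT, or 0.139 of WT in se-2 and 0.521 in chr2. The 85 entries listed with 1 arm summed to 0.574 of WT in se-2 and 0.582 in chr2. For the entries outside the late group the ratios in se-2 were 0.0867 with both arms and 0.168 with 1 arm. In WT and chr2, MIR5663 and MIR5654 held most counts of the hairpins with both arms, and their se-2 over WT ratios were 0.0706 and 0.0614. In se-2, MIR5014a held the most, with a mean of 13.3 counts against 8 for MIR5663 and 4.67 for MIR5654. MIR8170, with 0, 2 and 0 counts in se-2, 2, 8 and 7 in chr2 and 17, 18 and 20 in WT, was at 0.0364. Not every such hairpin was this low: MIR5014a, in an untranslated exon of the glutamate decarboxylase gene GAD2, had 0.313 of its WT counts in se-2, and MIR5639, with at most 7 counts in a library, had 1.25 times those of WT.

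The number of exact genome matches did not order the late sums, while length did in part. Matches were counted on both strands, so inverted repeats within a hairpin count too, and the number is not a copy number. The 24 late entries whose mature sequence had 5 or more exact matches in the genome kept 0.569 of the WT sum in se-2, and none of the 20 with a mean of at least 10 counts had a ratio below 0.25, but these 20 hold 8 distinct sequences. The 20 with 2 to 4 matches kept 0.597, and 5 of the 10 at that level were below 0.25, with 4 distinct sequences among the 5. These 5 were miR5998a, miR5998b, miR5995b and both miR5663 arms, which match each other's site in the same hairpin. miR5998a and miR5998b lie close together on opposite strands, as do miR5995b and miR5595a, which share a sequence. This class therefore cannot be read as entries with several gene copies. The 57 late entries with a single match kept 0.401, and 5 of the 13 at that level were below 0.25. Outside the late group, 22 of 24 entries with 5 or more matches were below 0.25 in se-2, so many matches did not by themselves go with a high ratio. Late entries of 21 nt kept 0.368 of the WT sum in se-2 and 0.484 in chr2, those of 20 nt or shorter 0.732 in se-2 and 0.608 in chr2, and those of 22 nt or longer 0.558 in se-2 and 0.618 in chr2. Of the 23 late entries of 21 nt at that level 9 were below 0.25 in se-2, against 120 of 154 outside the late group. The other 2 length classes rest on few sequences. In se-2, the 6 miR8167 entries, 1 sequence with about 125 mean counts each, fall in the class of 22 nt or longer, which summed to 1094. The class of 20 nt or shorter summed to 693, with 281 from miR5642a, 132 from miR5642b and 112 from miR8180.

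The late sums in se-2 also differed by where the entries lie in the annotation. The 56 intergenic late entries summed to 0.593 of WT in se-2, the 22 within a protein-coding gene on its strand to 0.537, the 14 opposite a protein-coding gene to 0.236 and the 9 within a non-coding gene or pseudogene to 0.157. In chr2 the values of the 4 classes were closer together, at 0.61, 0.469, 0.506 and 0.446 in that order. The 9 non-coding or pseudogene entries include miR8183, miR5998a, miR5998b and miR5663-5p, which are described above, so this class rests on few sequences. Its members were not all low: miR8174 was at a ratio of 0.604 and held a mean of 19.3 of the 36.7 se-2 counts of the class. Only 4 of the 14 entries opposite a protein-coding gene had a mean of at least 10 counts. They include miR5663-3p, from the hairpin of miR5663-5p, so the low classes share a hairpin. They also include miR5995b, while miR5595a, with the same sequence, counts among the entries on the strand of the gene. Another of the 4, miR5635d, was at a ratio of 0.48 and held a mean of 27.3 of the 42.3 se-2 counts of the class. Adenine was the first base of 52.5% of late entries and of 16.0% of the other entries with counts, and uridine of 38.6% of late entries and 61.0% of the others. As background, plant AGO1 prefers small RNAs that begin with uridine. The folding energy of the annotated precursors, computed with RNAfold, was alike, with a median of -40.7 kcal/mol per 100 nt for late entries and -40.0 for the others.

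**Figure D4:**
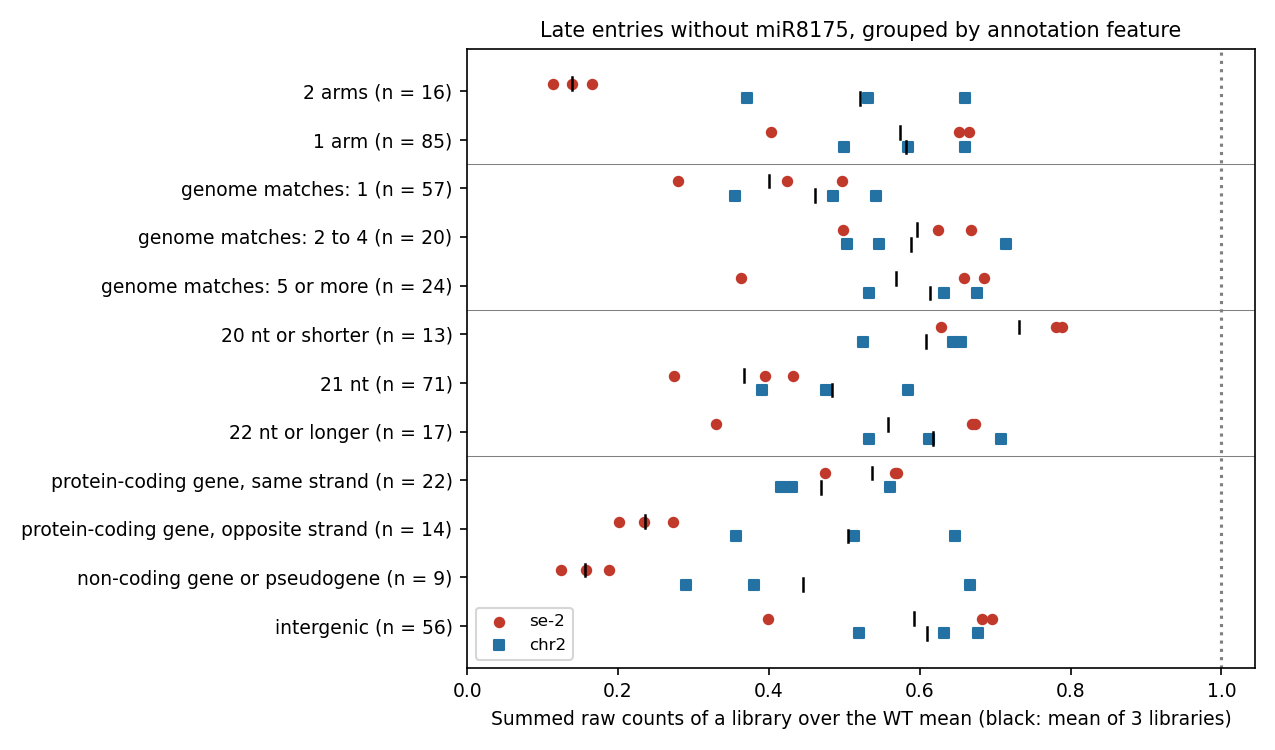
Summed raw counts of classes of late entries without miR8175 in each se-2 and chr2 library, divided by the WT mean of the class (x axis; 1, dotted, is WT). Classes (y axis) are by arms listed, exact matches in the genome, mature length and annotation, points are libraries and black ticks are means of 3 libraries. In se-2 the hairpins with 2 arms (0.139), the entries in non-coding genes or pseudogenes (0.157) and those opposite coding genes (0.236) are low, while chr2 varies less between classes.

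Late entries were not independent measurements. In 8 groups, 25 entries shared their mature sequence with another late entry. The 6 miR8167 entries had 3 distinct rows of counts, all nearly equal (WT means of 235 to 238 counts), and the miR5998 entries were nearly equal too. In other groups the copies differed: the WT means of miR5642a and miR5642b were 378 and 149 counts, those of the 5 miR5645 entries with 1 sequence spanned 2.62-fold, and those of the 4 miR5635 entries 4.77-fold. The counting was thus not given by the mature sequence alone, and the split between copies is uncertain. Taking 1 entry per mature sequence, the late share of counts without miR8175 in se-2 was 6.86 times that of WT, and in chr2 1.03 times.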

How the data were processed

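Small RNA of 19 to 24 nt was gel-purified, ligated to adapters and sequenced, per the labels' protocols. Bowtie 1.1.2 and the TAIR10 genome are named, per the submitters' processing notes. The counter, its annotation and the handling of reads with several matches are not given. The deposited values are raw counts for each mature miRNA, whole and not normalized. All 427 names were matched to RefSeq miRNAs of TAIR10.1, from which sequences, coordinates, exact genome matches and overlapping genes were taken. Precursors were folded with RNAfold 2.7.2.

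One edgeR 4.0.16 quasi-likelihood fit (robust, TMM, filterByExpr, limma 3.58.1, R 4.3.3) over all 9 libraries tested 283 entries, with Benjamini-Hochberg adjustment over all of them and a limit of 0.05; standard errors were derived from each log2 change and its F statistic. Summed counts and shares were compared by exact two-sided permutation tests (SciPy 1.17.1). Both comparisons share the WT libraries. Replicates differed beyond sampling noise (chi-square over degrees of freedom 2.96 to 102). Named entries were miR8175, the 10 with the highest CPM, and per comparison and direction up to 8 called entries with the largest change, at least 10 CPM on average and no overlap. Entries with counts in all libraries of one genotype and 0 in another, and those sharing a hairpin with a named entry, were named too. Entries with a mean of at least 10 counts and a se-2 over WT ratio below 0.25, miR5651 and miR5995b included, and those named for shared sequences, hairpins or detection in 1 genotype were chosen after their values were seen. The members and lists were chosen with earlier results of these data known. Alternatives covered scaling, the test (DESeq2 1.42.0, limma-voom), filters, copies, a replicate block, the genotypes in the fit and leaving out each library. Scripts were tested on simulated data. For the edgeR fit, these data held changes in both directions in a minority of entries and no fall common to most entries. They therefore do not test whether the assumption of TMM scaling holds for se-2.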

Additional observations from a re-analysis of the deposited data

How the results depend on the processing

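Depth is unknown beyond the miRNA counts, raw ratios carry any difference in depth, and TMM changes are relative to the average miRNA. In the 101 entries without miR8175, the sum ratios of 0.545 (se-2) and 0.577 (chr2) ranged over 0.502 to 0.625 and 0.536 to 0.621 on leaving out a library, and the se-2 share ratio of 4.59 over 4.22 to 4.83. With miR8175 these became 0.698 and 0.867 for the sums and 6.04 and 1.53 for the shares. One entry per mature sequence, added after seeing the data, gave a share ratio of 6.86 in se-2. The chr2 share ratio of 1.02 turned to 0.939 as a ratio of medians and ranged over 0.938 to 1.07 on leaving out a library. Thinning to 130482 counts, which takes most counts out of the chr2 and WT libraries, lowered detection in all 3 libraries to 39.8 entries in chr2 and 43.0 in WT. Late entries called higher in se-2 (43) ranged from 34 to 53 over all settings but the unscaled one, which gave 0.

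Late entries called lower in se-2 (4) were 8 with DESeq2 size factors, 2 with TMM factors from the other entries, 27 unscaled, 7 with DESeq2's test, 7 with 1 entry per identical row, and 2 to 7 on leaving out a library. Those called higher in chr2 (2) were 4 with DESeq2 size factors, 1 with total counts, 1 unscaled, and 1 to 3 on leaving out a library. Those called lower in chr2 (2) were 1 with DESeq2 size factors, TMM factors from the other entries, DESeq2's test or a mean of at least 10 counts, 27 unscaled, 6 with 1 entry per identical row, and 1 to 2 on leaving out a library. The replicate numbers did not pair the libraries (correlations of deviations of same-numbered libraries -0.188 to 0.074); the replicate block left 43 and 4 calls in se-2 and 2 higher and 1 lower in chr2, and moved the adjusted p of miR5637 to 0.0821.

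Without scaling, log2 changes in se-2 turned to -0.43 for miR5642a, -0.64 for miR5653, -0.93 for miR8167a, miR8167b, miR8167d and miR8167e, -0.92 for miR8167c, -0.91 for miR8167f, -0.17 for miR5642b, -0.0245 for miR5640 and -0.61 for miR5637. In chr2 they turned to -0.79 for miR5642a, -0.50 for miR5653, -0.69 for the 6 miR8167 entries, -0.89 for miR5642b, -0.16 for miR5659, -0.12 for miR8180, -0.33 for miR5645c, -0.79 for miR5012 and -0.68 for miR5654-3p. Other reversals, all of changes in chr2 that were not called, were miR5642b at -0.0437 with total counts, -0.0834 with 1 entry per identical row and -0.14 to 0.22 on leaving out a library, miR5640 at -0.12 to 0.13 on leaving out a library, and miR5012 at -0.0288 with 1 entry per identical row and -0.0033 to 0.34 on leaving out a library. Of 783 values of named entries under settings other than no scaling, 752 kept their direction and their side of the limit.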
